A study of Mus musculus with 7 samples.

Results

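The regions described here surround amyloid deposits in the leptomeninges, the thin membranes that carry arteries over the brain surface, of PDAPP mice given the antibody 3D6 or control IgG. They were chosen by number, since the sample labels place regions 1 to 12 of each slide in the leptomeninges. This gave 82 of the 166 regions with values, 48 from 4 3D6 mice and 34 from 3 IgG mice. Each mouse gave 12 leptomeningeal regions except IgG mouse 37, which gave 10 because 2 of its regions held no values. The other 84 regions lie around amyloid of penetrating vessels in the same brains and serve only as a comparison. The panel held 25 target proteins, and 24 of them are described singly.

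Both groups were PDAPP mice, an inbred line in which the platelet-derived growth factor B-chain promoter drives mutant human amyloid precursor protein. The study's methods give both sexes and an age of 23 to 26 months, and the sex of each mouse was not in the labels. The 3D6 mice received the anti-Aβ antibody, an IgG2b, at 25 mg/kg in 1 subcutaneous injection per week for 3 months. The IgG mice received an IgG2a isotype control at 50 mg/kg in 2 injections per week over the same 3 months. Antibody specificity, isotype, dose and schedule therefore changed together and cannot be told apart. Sections were formalin-fixed and paraffin-embedded, with a thickness of 5 µm in the labels and 10 µm in the methods. Regions were circles of 100 µm placed by stains for amyloid and for laminin, a protein of vessel walls, and neither was among the proteins counted.

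Amyloid in the walls of leptomeningeal arteries is the mark of cerebral amyloid angiopathy. These arteries are held open by smooth muscle cells, which contain smooth muscle actin (SMA), and are accompanied by perivascular macrophages that carry CD45, CD11b and F4/80. Antibodies bound to amyloid can engage the Fc receptors of such macrophages, and fibronectin is a matrix protein laid down in tissue repair and fibrosis. The comparison of the treatments asks which immune and vascular proteins around the deposits differ after anti-Aβ treatment.

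In this assay (GeoMx digital spatial profiling), antibodies carry DNA tags that ultraviolet light releases from 1 region at a time and that are then counted. The panel had 25 targets, 3 housekeepers (GAPDH, S6 and Histone H3) and 3 negative controls, which are immunoglobulins from rat (Rt IgG2a and Rt IgG2b) and rabbit (Rb IgG) with no target of their own. A level is the log2 of a count over the geometric mean of the 3 negative controls of its region, averaged over the regions of a mouse, and the mouse is the replicate. A value of 0 is the level of the negative controls. Total counts ran from 3665 to 30248 per 3D6 region and from 8646 to 90845 per IgG region, and SMA was a large part of them. The median region held 34.5 nuclei in 3D6 mice and 19 in IgG mice, and the warning for few nuclei was attached to 7 of 48 3D6 regions and 19 of 34 IgG regions.

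The vessel wall proteins were present throughout. SMA and the endothelial proteins CD31 and CD34 exceeded the highest negative control in all 48 3D6 regions and all 34 IgG regions. So did CD11b, CD14 and GZMB. At the other end, FOXP3 exceeded the highest negative control in 0 regions of either group. CD28 did so in 1 3D6 region, PD-1 in 2 and CD4 in 3, with 0 IgG regions for all 3 proteins. Values of these 4 proteins lie at or under the background and were measured from medians of 4.40 to 10.1 counts.

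Of the 25 targets, 4 were higher around leptomeningeal amyloid in 3D6 mice and 1 was lower at an adjusted p under 0.05 (limma with Benjamini-Hochberg adjustment). CD45, fibronectin, CD11b and F4/80 rose, and SMA fell. These 5 are 20.0% of the targets tested, with 16.0% higher and 4.00% lower. Before adjustment 10 targets (40.0%) had a p under 0.05. The 4 3D6 mice and the 3 IgG mice did not overlap for 6 targets (24.0%), the 5 above and MHC II.

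**Figure D1:**
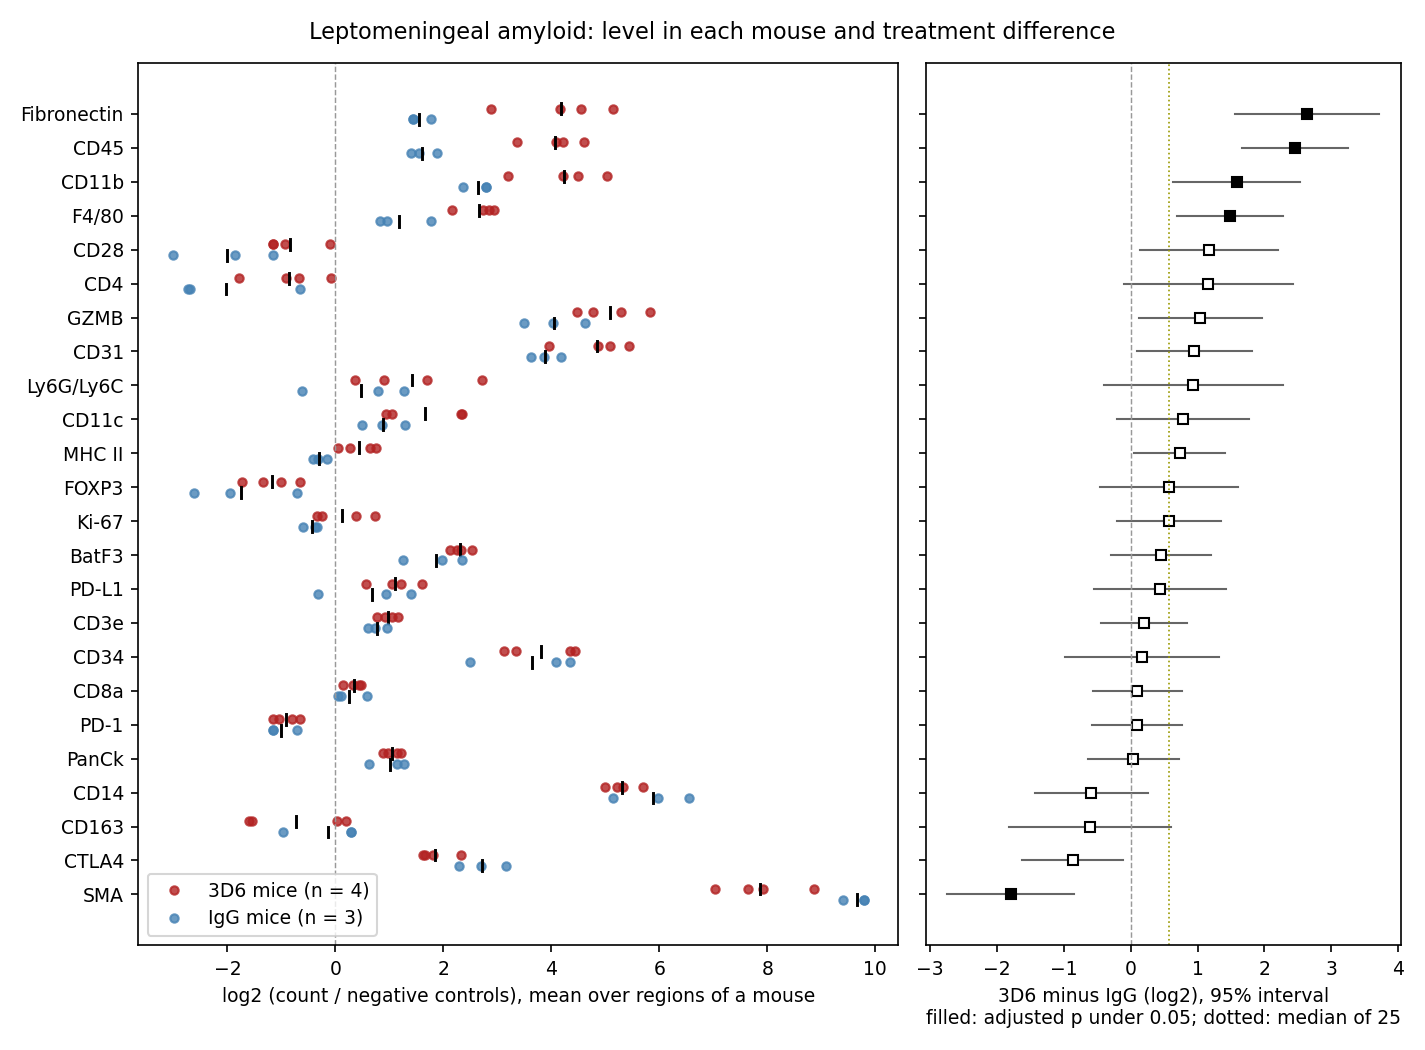
Left, mean log2 ratio to the negative controls over the leptomeningeal regions of each of 4 3D6 mice (red) and 3 IgG mice (blue) for 24 targets, with group means as bars. Right, 3D6 minus IgG differences with 95% intervals, where filled squares (CD45, fibronectin, CD11b, F4/80 and SMA) have an adjusted p under 0.05 and the dotted line is the median difference of all 25 targets, 0.57.

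CD45, the phosphatase that all leukocytes carry, separated the groups most clearly. Its log2 ratio was 4.09, 4.22, 3.36 and 4.61 in 3D6 mice 72, 77, 81 and 83, against 1.39, 1.89 and 1.55 in IgG mice 29, 37 and 49. The lowest 3D6 mouse lay well above the highest IgG mouse. Single regions ran from 2.01 to 6.16 in 3D6 mice and from 0.69 to 2.85 in IgG mice, and 43 of 48 3D6 regions exceeded every IgG region. The difference was 2.46 (SE 0.36, adjusted p = 0.00096 from limma, exact permutation p = 0.029), or 5.49-fold. Median counts were 256 in 3D6 regions and 56.0 in IgG regions. A higher level in a region can mean more cells or more protein per cell, and the 2 cannot be told apart here.

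Fibronectin gave the largest difference of the panel. Its log2 ratio was 4.56, 4.15, 2.88 and 5.15 in 3D6 mice 72, 77, 81 and 83, against 1.43, 1.77 and 1.44 in IgG mice 29, 37 and 49. The IgG mice lay within 0.34 of each other, whereas 3D6 mouse 81 stood below the other 3D6 mice and still above all IgG mice. As for CD45, 43 of 48 3D6 regions exceeded every IgG region. The difference was 2.64 (SE 0.49, adjusted p = 0.0033 from limma, exact permutation p = 0.057), or 6.22-fold, with median counts of 318 in 3D6 regions and 56.7 in IgG regions. The regions of mouse 81 ran from 1.20 to 5.05 with a median of 3.04, so that the lowest of them lay within the IgG range of 0.64 to 2.47.

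Of the 6 myeloid targets, CD11b and F4/80 rose and the other 4 did not pass, against 16.0% of all 25 targets higher. Both calls were lost with division by the housekeepers, with no division, with nuclei and with Rt IgG2a as the only control. The log2 differences with the housekeepers were 0.75 for CD11b (adjusted p = 0.214 from limma) and 0.65 for F4/80 (adjusted p = 0.224), and those with Rt IgG2a alone were 1.21 (adjusted p = 0.0974) and 1.10 (adjusted p = 0.0504). The median difference of the 6 was 0.86, against 0.57 over all 25 targets. CD11b is an integrin chain of macrophages, microglia and neutrophils. Its log2 ratio was 4.48, 4.22, 3.20 and 5.04 in 3D6 mice 72, 77, 81 and 83, against 2.79, 2.78 and 2.37 in IgG mice 29, 37 and 49. Mouse 81 was again the lowest 3D6 mouse and stood 0.41 above the highest IgG mouse. The difference was 1.59 (SE 0.43, adjusted p = 0.0190 from limma, exact permutation p = 0.057), or 3.01-fold, and 28 of 48 3D6 regions exceeded every IgG region.

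F4/80 is a surface glycoprotein of mouse macrophages. Its log2 ratio was 2.73, 2.84, 2.15 and 2.94 in 3D6 mice 72, 77, 81 and 83, against 1.76, 0.82 and 0.96 in IgG mice 29, 37 and 49. IgG mouse 29 was the highest of its group. The difference was 1.48 (SE 0.35, adjusted p = 0.0110 from limma, exact permutation p = 0.029), or 2.80-fold. Single regions overlapped more than for CD45, since 17 of 48 3D6 regions lay above every IgG region and 17 of 34 IgG regions lay below every 3D6 region. Median counts were 86.2 in 3D6 regions and 50.9 in IgG regions.

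The remaining myeloid targets differed in both directions without passing relative to the negative controls. With division by the housekeepers CD14 (-1.42, adjusted p = 0.0101 from limma) and CD163 (-1.44, adjusted p = 0.0323) passed as lower in 3D6 mice. CD11c, an integrin chain of dendritic cells and some macrophages, was at 0.94, 2.33, 1.05 and 2.35 in 3D6 mice 72, 77, 81 and 83, against 1.30, 0.86 and 0.49 in IgG mice 29, 37 and 49. Its 3D6 mice fell into a low and a high pair, the low pair lying within the IgG range, and the difference was 0.78 (SE 0.44, adjusted p = 0.222 from limma). Ly6G/Ly6C, an antigen of neutrophils and monocytes, had a mean of 1.42 ± 1.02 (SD, n = 4) in 3D6 mice and 0.48 ± 0.98 (SD, n = 3) in IgG mice. CD14, a receptor of monocytes for bacterial lipopolysaccharide, had a mean of 5.31 ± 0.29 in 3D6 mice and 5.89 ± 0.70 in IgG mice. CD163 is a scavenger receptor for haemoglobin on macrophages, perivascular ones among them. It was at -1.61, 0.19, -1.54 and 0.02 in 3D6 mice 72, 77, 81 and 83, against 0.30, 0.29 and -0.98 in IgG mice 29, 37 and 49. Its groups overlapped across most of their ranges (difference -0.60, SE 0.55, adjusted p = 0.386 from limma, exact permutation p = 0.343), and 7 regions of each group exceeded the highest negative control.

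**Figure D2:**
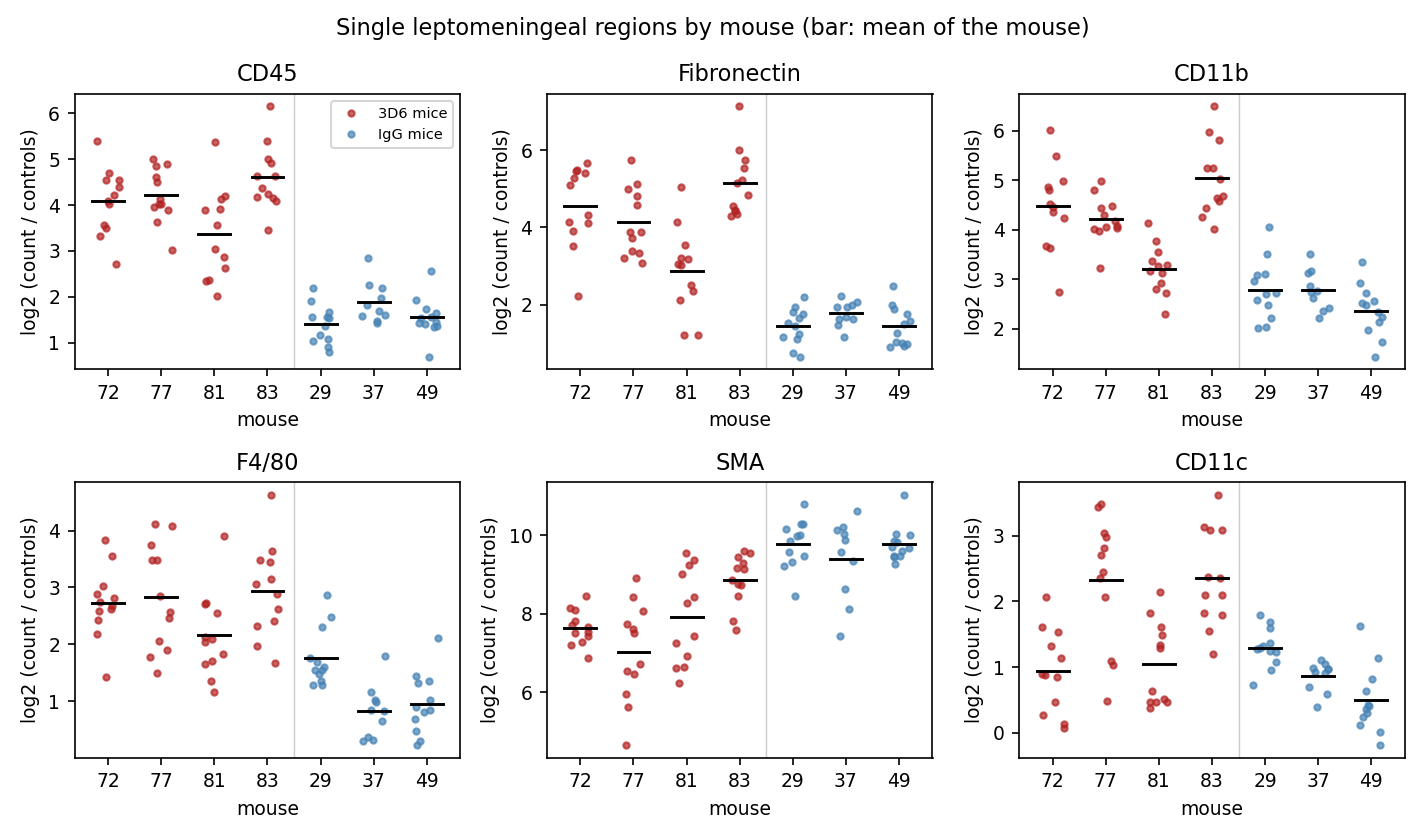
Log2 ratio to the negative controls of each leptomeningeal region, by mouse, with 3D6 mice 72, 77, 81 and 83 in red and IgG mice 29, 37 and 49 in blue, and the mean of each mouse as a bar. CD45 and fibronectin of nearly all 3D6 regions lie above the IgG regions, SMA of 3D6 mice lies lower with wide ranges in mice 77 and 81, and CD11c splits the 3D6 mice into a low and a high pair.

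Of the 3 vessel wall targets, SMA fell and the endothelial proteins did not pass. The log2 ratio of SMA was 7.65, 7.02, 7.91 and 8.87 in 3D6 mice 72, 77, 81 and 83, against 9.79, 9.40 and 9.79 in IgG mice 29, 37 and 49. Every 3D6 mouse lay below every IgG mouse, with mouse 83 the nearest at 0.53 under the lowest of them. The difference was -1.79 (SE 0.43, adjusted p = 0.0110 from limma, exact permutation p = 0.057), that is 0.289 times the IgG level. Median counts were 3649 in 3D6 regions and 18284 in IgG regions. The regions of mouse 77 ran from 4.65 to 8.91 and those of mouse 81 from 6.24 to 9.54. Those of mouse 72 ran from 6.89 to 8.46 and those of mouse 83 from 7.60 to 9.59. All regions of mouse 83 and part of those of the other 3D6 mice lay in the IgG range of 7.45 to 11.0. The lowest region was at 8.46, 7.45 and 9.28 in IgG mice 29, 37 and 49, so mouse 37 set the floor of that range. In all, 16 of 48 3D6 regions lay below every IgG region.

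CD31, an adhesion molecule of endothelial cells, was at 3.96, 5.43, 4.87 and 5.09 in 3D6 mice 72, 77, 81 and 83, against 4.17, 3.86 and 3.62 in IgG mice 29, 37 and 49. All 3D6 mice but mouse 72 exceeded the IgG mice, and the difference of 0.95 (SE 0.39) had an adjusted p of 0.0923 from limma. CD34, a sialomucin of endothelial and progenitor cells, had a mean of 3.81 ± 0.68 (SD, n = 4) in 3D6 mice and 3.64 ± 1.01 (SD, n = 3) in IgG mice, a difference of 0.17. Both point estimates were positive relative to the negative controls, whereas that of CD34 was -0.44 with no division and that of CD31 was -0.22 with division by nuclei. Their 95% intervals, 0.09 to 1.81 for CD31 and -0.98 to 1.32 for CD34, are wide.

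The antigen-presentation targets were MHC II and BatF3. MHC II presents peptides to CD4+ T cells. It was at 0.65, 0.05, 0.28 and 0.76 in 3D6 mice 72, 77, 81 and 83, against -0.32, -0.42 and -0.15 in IgG mice 29, 37 and 49. The groups did not overlap, but the difference of 0.73 (SE 0.31) had an adjusted p of 0.0974 from limma and an exact permutation p of 0.057. It was 0.12 with no division and turned to -0.11 with division by the housekeepers and to -0.44 with nuclei. MHC II exceeded the highest negative control in 12 of 48 3D6 regions and 0 of 34 IgG regions. Median counts were nearly equal, at 18.3 in 3D6 regions and 16.3 in IgG regions. BatF3, a transcription factor of cross-presenting dendritic cells, had a mean of 2.31 ± 0.17 in 3D6 mice and 1.85 ± 0.55 in IgG mice.

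None of the 5 targets of T-cell lineage and effector function passed in limma, and none of the 4 of costimulation and checkpoints did. Of these 9, GZMB, CD28 and CTLA4 had an unadjusted p under 0.05, against 10 of all 25 targets (40.0%). The lineage and effector targets had differences of 0.10 to 1.16 with a median of 0.57, the same as the panel. GZMB, a protease of cytotoxic granules, had a mean of 5.09 ± 0.59 (SD, n = 4) in 3D6 mice and 4.05 ± 0.57 (SD, n = 3) in IgG mice (adjusted p = 0.0923 from limma). It was far above the negative controls in both groups, whereas CD3e, part of the T-cell receptor complex, was at 0.97 ± 0.17 in 3D6 mice and 0.77 ± 0.18 in IgG mice. CD8a, the coreceptor of cytotoxic T cells, averaged 0.35 ± 0.15 in 3D6 mice and 0.25 ± 0.30 in IgG mice. The coreceptor of helper T cells, CD4, and the transcription factor of regulatory T cells, FOXP3, lay under the negative controls in both groups. CD4 averaged -0.86 ± 0.71 in 3D6 mice and -2.03 ± 1.19 in IgG mice. FOXP3 averaged -1.18 ± 0.46 in 3D6 mice and -1.76 ± 0.96 in IgG mice.

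CTLA4, which restrains T cells once they are activated, was second to SMA among the negative differences. It was at 1.62, 1.81, 1.66 and 2.32 in 3D6 mice 72, 77, 81 and 83, against 2.70, 3.16 and 2.29 in IgG mice 29, 37 and 49. Only 3D6 mouse 83 and IgG mouse 49 kept the groups from separating, by 0.03, and the difference was -0.86 (SE 0.34, adjusted p = 0.0923 from limma, exact permutation p = 0.086). CTLA4 was below every IgG region in 15 of 48 3D6 regions. CD28, the activating receptor that shares its ligands with CTLA4, averaged -0.84 ± 0.50 in 3D6 mice and -2.01 ± 0.94 in IgG mice. The T-cell checkpoint receptor PD-1 averaged -0.92 ± 0.23 in 3D6 mice and -1.01 ± 0.25 in IgG mice. Its ligand PD-L1 averaged 1.11 ± 0.43 in 3D6 mice and 0.68 ± 0.90 in IgG mice.

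The remaining targets stand alone in their roles. The proliferation antigen Ki-67 averaged 0.13 ± 0.52 in 3D6 mice and -0.44 ± 0.15 in IgG mice, and exceeded the highest negative control in 9 of 48 3D6 regions and 0 of 34 IgG regions. Its median counts were not higher in 3D6 regions, at 14.5 against 16.4 in IgG regions. The difference of Ki-67 was -0.04 with no division and -0.27 with division by the housekeepers. PanCk, a stain for epithelial keratins, was at 1.05 ± 0.16 in 3D6 mice and 1.01 ± 0.34 in IgG mice, the smallest difference of the panel at 0.04.

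Most proteins were higher in 3D6 mice relative to the negative controls, and the negative controls themselves differed. Of 25 differences, 21 were positive, with a median of 0.57. The mean log2 count of the negative controls was 3.84 ± 0.39 (SD, n = 4) in 3D6 mice and 4.46 ± 0.19 (SD, n = 3) in IgG mice, a difference of -0.61 (exact permutation p = 0.057). That of the housekeepers was 10.05 ± 0.15 in 3D6 mice and 9.83 ± 0.33 in IgG mice (difference 0.23, exact permutation p = 0.286). The housekeepers differed among themselves. Relative to the negative controls, Histone H3 was higher in 3D6 mice by 1.15, S6 by 1.28 and GAPDH by 0.08. For Histone H3 and S6 every 3D6 mouse lay above every IgG mouse. The 3 negative controls also differed among themselves. Relative to their geometric mean, Rt IgG2a was higher in every 3D6 mouse, by 0.38, and Rt IgG2b overlapped (difference -0.06). Rb IgG was lower in every 3D6 mouse, with a difference of -0.32. Every target of a region is divided by the same number, so another divisor moves all 25 differences by 1 amount and leaves their order. The median moved by -0.84 with the housekeepers as divisor, by -0.61 with no division and by -1.17 with the number of nuclei.

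Relative to the median of 25, which no divisor changes, fibronectin stood at 2.06, CD45 at 1.88, CD11b at 1.01 and F4/80 at 0.91. SMA stood at -2.37, CTLA4 at -1.44, CD163 at -1.18 and CD14 at -1.16. CD45 and fibronectin rose and SMA fell with no division and with division by the housekeepers, and the calls of CD11b and F4/80 were lost in both, as with nuclei and with Rt IgG2a alone. CTLA4 passed as lower with no division, with the housekeepers and with Rt IgG2a alone (-1.25, adjusted p = 0.0399 from limma). The split of the calls was then 2 higher and 4 lower with the housekeepers, the 4 being SMA, CTLA4, CD14 and CD163. It was 2 higher and 2 lower with no division, against 4 higher and 1 lower with the negative controls.

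**Figure D3:**
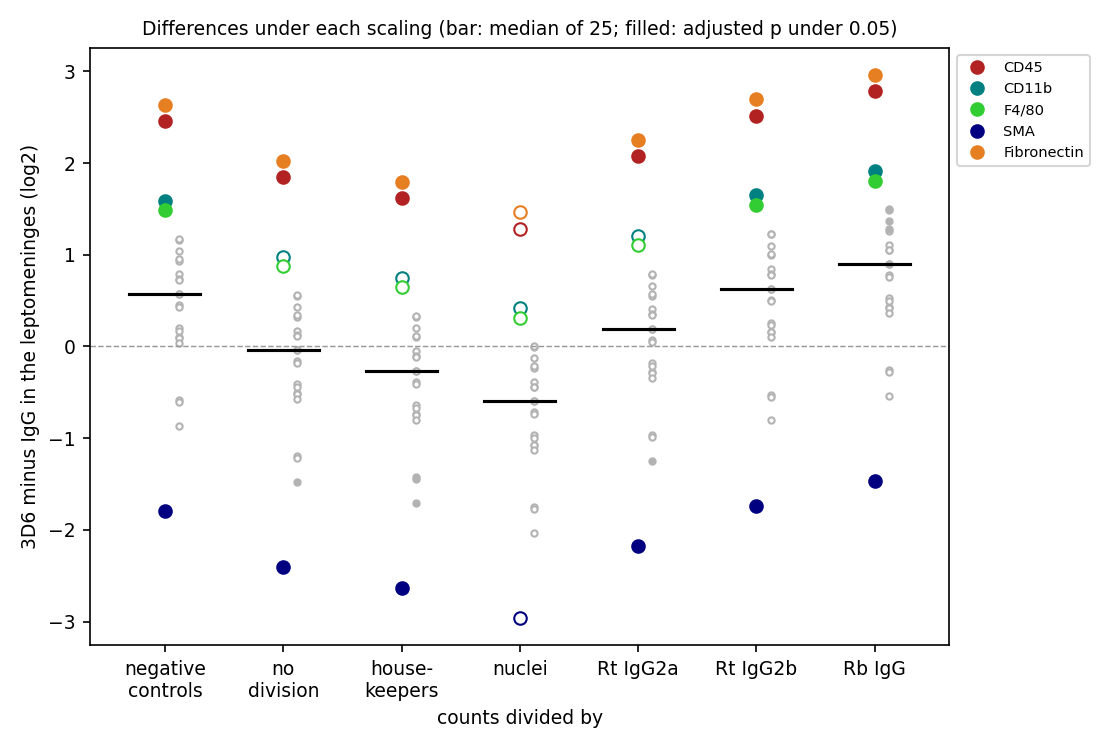
3D6 minus IgG differences of the 25 targets in the leptomeninges (log2) with the counts of each region divided by its negative controls, by nothing, by its housekeepers, by its number of nuclei or by 1 negative control, with bars for the median of 25 and filled points for an adjusted p under 0.05. CD45, fibronectin and SMA keep their calls under every divisor except the number of nuclei, under which 0 targets pass.

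With the number of nuclei as divisor, 0 of 25 targets passed in limma and 1 had an unadjusted p under 0.05. Median nuclei per region were 111.5, 23.5, 30.5 and 36.5 in 3D6 mice 72, 77, 81 and 83, against 97, 11 and 17.5 in IgG mice 29, 37 and 49. Mice 72 and 29, which were read in the same run, had the most nuclei of their groups by far, so this divisor spreads each group widely. The difference in log2 nuclei between the groups was 0.56 (exact permutation p = 0.514). Across single regions, with the mean of each mouse removed, log2 nuclei had a Pearson r of 0.35 with CD45, 0.36 with F4/80 and 0.32 with fibronectin over 48 3D6 regions. Over 34 IgG regions r was -0.01, 0.09 and 0.25. Regions of a mouse share slide and staining, and these values are descriptive. Without the regions of few nuclei 7 targets passed, the 5 above among them. This setting leaves out IgG mouse 37 whole and 9 of the 12 regions of IgG mouse 49.

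The 3 runs in which the mice were read each held mice of both groups, with a single IgG mouse in each. Within the runs CD45 differed by 2.43, 2.33 and 2.69, fibronectin by 2.57, 2.38 and 3.12, and SMA by -1.39, -2.37 and -2.14. CD11b and F4/80 were also higher in all 3 runs, by 1.75, 1.44 and 1.69 and by 1.59, 2.01 and 0.97. GZMB and CD31 changed sign between runs, at 1.01, -0.16 and 2.33 and at 1.35, 1.57 and -0.20. The number of calls depended on single mice: without IgG mouse 29 it was 3, with SMA (adjusted p = 0.0622 from limma) and CD11b (adjusted p = 0.0622) lost, and without IgG mouse 37 it was 8. CD11b was also lost without IgG mouse 49 (adjusted p = 0.0680 from limma).

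Regions within a mouse differed from each other more than mice of a group did for most targets. The share of the variance within treatment groups that lay between mice had a median of 31.2% over the 25 targets. It passed 50% for 3 of them, Ly6G/Ly6C (70.6%), CD34 (58.6%) and CD11c (50.7%). For PD-1 (1.85%) and PanCk (1.91%) almost all of this variance lay between regions of a mouse, counting error included. PD-1 was measured from a median of 6.94 counts in 3D6 regions and 10.1 in IgG regions, and the part of counting error was not tested. For CD45 the share was 26.7%, for SMA 29.9%, for fibronectin 44.9% and for CD11b 48.8%.

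The spread between regions of a mouse, measured relative to the negative controls, was also compared. The SD over regions was larger in 3D6 mice than in IgG mice at an adjusted p under 0.05 for 4 of 25 targets (16.0%), fibronectin, CD11c, CD8a and CD45, and smaller for 0. For fibronectin the SD was 1.04, 0.88, 1.11 and 0.86 in 3D6 mice 72, 77, 81 and 83, against 0.47, 0.32 and 0.51 in IgG mice 29, 37 and 49. The lowest 3D6 mouse lay clear of the highest IgG mouse, and the difference in log2 SD was 1.19 (SE 0.24, adjusted p = 0.0057 from limma, exact permutation p = 0.029). For CD45 the SD was 0.73, 0.59, 0.99 and 0.70 in 3D6 mice, against 0.42, 0.44 and 0.43 in IgG mice (difference in log2 SD 0.78, SE 0.23, adjusted p = 0.0304 from limma). With division by the housekeepers the difference in log2 SD was 0.47 for fibronectin and 0.02 for CD45, and neither passed. With no division it was 0.63 for fibronectin and 0.12 for CD45, and with nuclei 0.56 and 0.02, again without passing.

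CD11c and CD8a were more uneven in 3D6 mice although their mean levels had not passed. The SD of CD11c was 0.63, 0.98, 0.63 and 0.74 in 3D6 mice 72, 77, 81 and 83, against 0.30, 0.23 and 0.50 in IgG mice 29, 37 and 49 (difference in log2 SD 1.17, SE 0.29, adjusted p = 0.0122 from limma). That of CD8a was 0.54, 0.86, 0.55 and 0.81 in 3D6 mice, against 0.30, 0.32 and 0.41 in IgG mice (difference in log2 SD 0.99, SE 0.25, adjusted p = 0.0122 from limma). CD8a was measured from a median of 17.0 counts in 3D6 regions and 22.8 in IgG regions, and the part of counting error in its spread was not tested. F4/80 and Ki-67 also separated the groups upwards without passing, so that 24.0% of targets had larger SDs in every 3D6 mouse. CD28 went the other way, with SDs of 0.38 to 0.82 in 3D6 mice and 0.87 to 0.93 in IgG mice (difference in log2 SD -0.69, SE 0.26, adjusted p = 0.0838 from limma). It was measured from a median of 8.25 counts in 3D6 regions and 6.24 in IgG regions, and the part of counting error in its spread was not tested either. Over the whole panel, 16 targets had the larger mean SD in 3D6 mice and 9 in IgG mice.

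**Figure D4:**
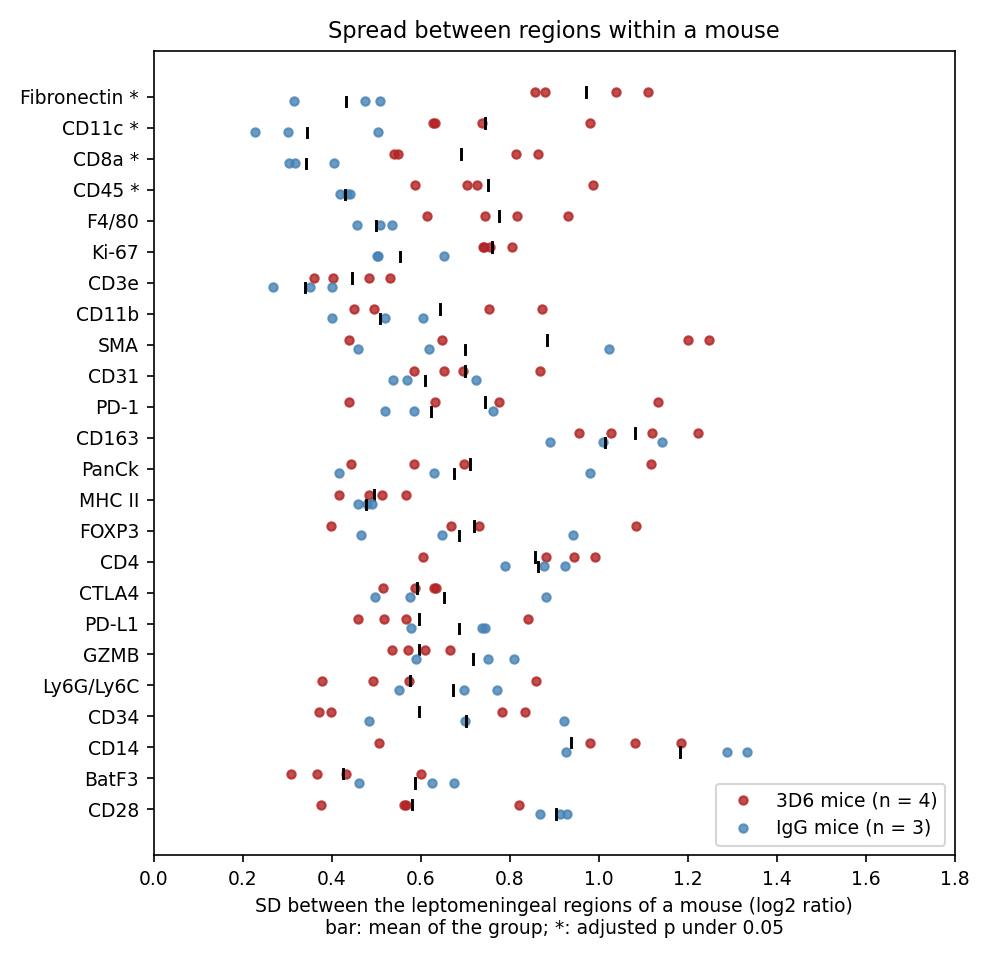
SD of the log2 ratio of 24 targets over the leptomeningeal regions of each mouse, with 4 3D6 mice in red and 3 IgG mice in blue and the group means as bars, ordered by the difference in log2 SD. Stars mark fibronectin, CD11c, CD8a and CD45, for which every 3D6 mouse lies above every IgG mouse, and CD28 at the bottom shows the reverse.

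The calls on the spread depended on the divisor. With division by the housekeepers or by nuclei, without moderation and without regions of few nuclei 0 of 25 passed in limma, with 1 to 7 at an unadjusted p under 0.05. With no division 1 target passed, CD28, which was measured from few counts and had the smaller SD in 3D6 mice. Without IgG mouse 29 or without IgG mouse 37, 1 target passed, fibronectin.

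In single 3D6 regions the leukocyte and macrophage proteins went together. With the mean of each mouse removed, the Pearson r over 48 3D6 regions was 0.77 between CD45 and CD11b, 0.70 between CD45 and F4/80 and 0.64 between CD11b and F4/80, positive in 4 of 4 mice for each pair. Over 34 IgG regions these values were 0.70, 0.52 and 0.38, positive in 3, 2 and 2 of 3 mice. With no division they were 0.86, 0.80 and 0.76 in 3D6 regions and 0.92, 0.85 and 0.80 in IgG regions. Fibronectin had an r of 0.35 with CD45, 0.30 with CD11b and 0.37 with F4/80 in 3D6 regions, and of 0.34, 0.30 and 0.35 in IgG regions. SMA had an r of -0.19 with CD45 and -0.24 with F4/80 in 3D6 regions, against 0.12 and -0.07 in IgG regions. All proteins of a region share its divisor, and with no division the r of SMA was 0.23 with CD45 and 0.15 with F4/80 in 3D6 regions.

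Around penetrating vessels of the same mice, 0 of 25 targets passed in limma. There 2 (8.00%) had an unadjusted p under 0.05, CD45 and PD-1, and CD45 and GZMB reached the smallest exact permutation p of 0.029. The groups did not overlap there for these 3 targets (12.0%). CD45 and GZMB were higher in every 3D6 mouse, with differences of 0.97 and 0.81, and PD-1 was lower in every 3D6 mouse, with a difference of -0.83. GZMB was at 4.93 to 5.17 in 3D6 mice, against 4.86, 3.01 and 4.82 in IgG mice 29, 37 and 49. Mouse 37 thus stood far below the other IgG mice, and the adjusted p of GZMB was 0.754 from limma. The difference between the treatments at the 2 sites was tested on the leptomeningeal minus the penetrating level of each mouse, and 7 of 25 targets passed (28.0%), against 9 (36.0%) before adjustment. For 6 of them (24.0%) the treatment difference was more positive in the leptomeninges, and for SMA it was more negative. The median of this contrast over all 25 targets was itself positive, at 0.63.

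The contrast was largest among the increases for fibronectin. Its leptomeningeal level exceeded its penetrating level by 2.70, 3.58, 1.77 and 3.31 in 3D6 mice 72, 77, 81 and 83, against 1.03, 0.58 and 0.74 in IgG mice 29, 37 and 49. Relative to the negative controls, every mouse had more fibronectin in the leptomeninges and every 3D6 mouse exceeded every IgG mouse (difference 2.06, SE 0.44, adjusted p = 0.0177 from limma, exact permutation p = 0.057). In the contrast the groups did not overlap for 10 of 25 targets (40.0%), all with 3D6 above, PanCk and FOXP3 among them. The negative controls of IgG mouse 37 themselves differed between the sites, at a mean log2 count of 4.67 in the leptomeninges and 6.49 around penetrating vessels. For CD11b the sites differed by 0.66, 0.73, 0.28 and 1.23 in 3D6 mice, against -0.48, -0.39 and -1.02 in IgG mice. The CD11b ratio was thus higher in the leptomeninges of all 3D6 mice and lower there in all IgG mice (difference 1.36, SE 0.34, adjusted p = 0.0177 from limma). CD45 and F4/80 followed with contrasts of 1.48 and 0.97 (adjusted p = 0.0177 and 0.0417 from limma).

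CD28 and Ly6G/Ly6C passed in the contrast though not in the leptomeninges alone. For CD28 the sites differed by -0.22, 0.12, 0.43 and 0.66 in 3D6 mice 72, 77, 81 and 83, against -0.86, -1.09 and -1.11 in IgG mice 29, 37 and 49 (difference 1.27, SE 0.32, adjusted p = 0.0177 from limma, exact permutation p = 0.029). For Ly6G/Ly6C they differed by 0.74, -0.74, -0.21 and -0.06 in 3D6 mice, against -1.31, -1.01 and -1.67 in IgG mice (difference 1.27, SE 0.39, adjusted p = 0.0417 from limma). Both had lower leptomeningeal than penetrating levels in all IgG mice, and CD28 lay at the background at both sites. Without 6 regions of IgG mouse 37 with high negative controls neither passed, with contrasts of 1.04 for CD28 (adjusted p = 0.0531 from limma) and 1.17 for Ly6G/Ly6C (adjusted p = 0.0560). SMA exceeded its penetrating level by 2.25, 0.25, 0.72 and 1.58 in 3D6 mice, against 2.99, 5.02 and 2.18 in IgG mice, where mouse 37 stood far above the other IgG mice (difference -2.20, SE 0.69, adjusted p = 0.0417 from limma). Without IgG mouse 37 the SMA contrast was -1.38 (adjusted p = 0.0641 from limma).

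**Figure D5:**
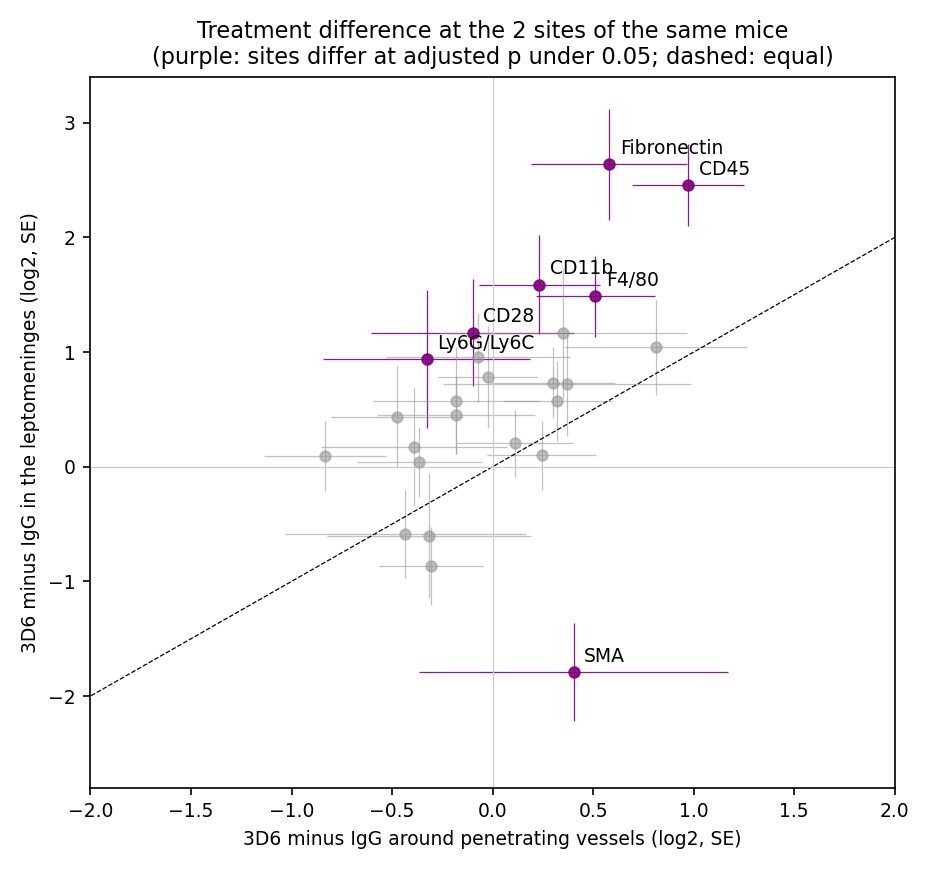
3D6 minus IgG difference of each of 25 targets in the leptomeninges (vertical) against that around penetrating vessels (horizontal), log2 with SE bars, for the same 4 3D6 and 3 IgG mice. The 7 named targets in purple differ between the sites at an adjusted p under 0.05, 6 above the dashed line of equality and SMA below it.

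The calls of the contrast also depended on the setting. With the run as a block or without IgG mouse 29, 0 of 25 targets passed in limma, although 7 and 8 had an unadjusted p under 0.05. With division by the housekeepers or by nuclei 1 target passed (SMA), and with no division 1 (fibronectin). The negative controls of IgG mouse 37 exceeded 10 times their median in 5 penetrating and 1 leptomeningeal region, and without these 6 regions 5 targets passed in the contrast and 5 in the leptomeninges.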

How the data were processed

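GeoMx protein counts were measured in brain sections of 7 mice. The deposited counts, 1 per probe and region, had been multiplied by the authors' calibration and positive-control factors, so they are not whole, and they had not been divided by controls. A summary deposited by the authors gives nuclei and the positive-control ratio of each region. Tables of normalized scores were not used.

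Each deposited count was divided by its region's negative-control geometric mean and converted to log2 with no pseudocount, and the regions of a mouse were averaged (Python 3.11.15, numpy 2.4.6, pandas 2.3.3). Groups were compared with limma 3.58.1 in R 4.3.3 (empirical Bayes moderation, two-sided), with p-values adjusted over the 25 targets (Benjamini-Hochberg) and called under 0.05. Exact permutation tests used the 35 splits of the mice, with a smallest p of 0.029. The spread was the log2 SD over the regions of a mouse. In an alternative, regions entered with the mouse as a block (statmod 1.5.0). Fits were tested on simulated data. Full statistics were given for each target past the threshold, each whose groups did not overlap and the 3 largest differences each way. For the spread and the sites they were given for targets past the threshold and the largest difference each way. Members, lists and rules were chosen with earlier results of these data known. Each label names 1 mouse, and mouse numbers are not shared between groups, so no mice were paired by number, and a block by run, which ties mice of both groups, was tried as an alternative. A mouse that the authors removed is not analysed here, and 1 target entered the fits but is not reported here. The counting depth of a region limits the precision of low targets, and no count interval was computed because the counts are not whole.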

Additional observations from a re-analysis of the deposited data

Results flagged for a closer look

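Among 75 values tested for a mouse far from its group, 2 stood out, where chance marks about 1 in 20 groups. For CD14, the leptomeningeal minus the penetrating level was -1.38 in 3D6 mouse 77, against -2.10 to -1.98 in the other 3D6 mice. For CD163 it was 1.15 in 3D6 mouse 83, against -0.76 to -0.65 in the other 3D6 mice.

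The treatment difference itself differed between the sites for 7 targets in limma. The leptomeningeal minus the penetrating treatment difference was 2.06 for fibronectin, 1.48 for CD45, 1.36 for CD11b, 1.27 for CD28 and 1.27 for Ly6G/Ly6C. It was 0.97 for F4/80 and -2.20 for SMA, against a median of 0.63 over all 25 targets.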

How the results depend on the processing

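In the leptomeninges 5 targets passed. The count was 0 with division by nuclei, 11 (10 higher) with Rb IgG as the only control, 12 (10 higher) with regions entered and the mouse as a random block, 1 (CD45) with an unmoderated Holm-Sidak test and 3 without moderation. The fit to regions used 1 correlation of 0.33 between regions of a mouse for all targets. Ly6G/Ly6C, with 70.6% of its variance between mice, was among its 12 calls (adjusted p = 0.243 from limma on 1 value per mouse). The count ran from 3 to 8 when single mice were left out. Without moderation CD45, F4/80 and fibronectin passed, whereas SMA and CD11b did not. The difference of MHC II turned to -0.11 with the housekeepers and to -0.44 with nuclei. For CD45 the difference ran from 1.29 to 2.87 over 23 alternatives, and the nuclei were the only setting in which it did not pass (adjusted p = 0.890). Division by nuclei also ended the call of fibronectin (1.47, adjusted p = 0.890) and SMA (-2.96, adjusted p = 0.238).

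In the contrast of the sites 7 passed. The count was 1 with the housekeepers, 1 with no division, 1 with nuclei, 3 with medians over regions, 3 without regions of few nuclei, 0 with the run as a block, and 0 to 6 when single mice were left out. For the spread 4 passed, with 0 for the housekeepers, 1 for no division, 0 for nuclei, 0 without regions of few nuclei, 0 without moderation, 1 with the median absolute deviation and 1 to 6 when single mice were left out. Around penetrating vessels 0 passed under each of the 11 alternatives run. The causes were not tested. Leaving out regions of high background was chosen after seeing the data. Tests for whole counts (edgeR, DESeq2) were not run because the counts are not whole, and mice could not be paired by number because the groups share none, while the run, which ties mice of both groups, was entered as a block. Groups of 4 and 3 mice limit every comparison to large differences.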
